A study of Mus musculus with 10 samples.

Results

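Expression of 8 TGF-beta pathway genes was followed in hippocampal microglia on an immune gene panel: the ligands Tgfb1, Tgfb2 and Tgfb3, the receptor chains Tgfbr1 and Tgfbr2, the SMAD proteins Smad3 and Smad5, and the secreted matrix protein Tgfbi. They were taken by gene name, 8 of the 545 endogenous genes measured. Each was read with its own probe in all 10 lanes, 5 from BDS pups and 5 from control pups. BDS stands for brief daily separation, in which pups were taken from the dam for 15 min each day, from postnatal day 1 to day 21 according to the labels. All 10 animals were male Balb/c mice (Balbc in the labels) collected at postnatal day 14, when the BDS schedule was still running, and each came from a different litter. The BDS pups were numbered 11, 17, 24, 38 and 59 and the control pups 1, 18, 40, 52 and 69. Hippocampal microglia were enriched with Percoll and then FACS-sorted, so each lane holds the pooled RNA of 1 animal's sorted cells. In such a sample, fewer cells that express a gene and less RNA per cell cannot be told apart. The measurement is a count of fluorescent barcodes per probe (nCounter, from cDNA amplified by 5 rounds of PCR). One probe per gene does not separate splice forms.

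TGF-beta ligands are secreted in a latent form and, once released, bind the type 2 receptor chain encoded by Tgfbr2. That chain then recruits and phosphorylates the type 1 chain encoded by Tgfbr1, a kinase that in turn phosphorylates SMAD proteins, which move to the nucleus and change transcription. In the mouse brain, TGF-beta signalling is known to be needed for microglia to acquire and keep their resident identity.

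Lanes differed in depth. Endogenous counts ran from 341679 to 968930 in BDS lanes and from 76237 to 802033 in control lanes, lowest in control 52 and next lowest in control 69. The log2 housekeeping signal was 9.79 ± 0.55 for BDS and 8.55 ± 1.28 for control pups (SD, n = 5 each), a difference of 1.23 (exact two-sided permutation p = 0.0873). Normalized counts below are raw counts scaled by the geometric mean, in that lane, of the 6 housekeeping genes the authors name. One of those genes, Polr1b, had raw counts of 6 in control 52 and 13 in control 69, both under the background limit of their lanes (24.4 and 13.9), where the limit lies 2 SD over the mean of the negative probes. All 10 microglia markers looked for were above the limit in at least 4 lanes, with a summed level of 115488 to 139398 normalized counts across BDS pups and 112206 to 165966 across control pups. Of 8 T cell markers on the panel none met that bar. Of 5 monocyte and border macrophage markers 1 met it and 4 were above the limit in no lane. These 5 summed to 104.7 to 159.6 normalized counts across BDS pups and 86.2 to 219.3 across control pups. The bar was also met by 4 of 5 endothelial and mural markers and by 1 of 5 neutrophil markers, Csf3r. The summed endothelial and mural level was 1153 to 1201 normalized counts across BDS pups and 841 to 1803 across control pups. The summed neutrophil list was 1067 to 1744 in BDS lanes and 1525 to 3453 in control lanes. In that list no gene other than Csf3r had a raw count over 67 in any lane. Of 6 B cell markers 1 met the bar, with summed levels of 170.6 to 260.5 in BDS and 168.5 to 301.5 in control pups. Only 2 of the 9 astrocyte, neuron and oligodendrocyte markers looked for were on the panel, and both met the bar. They summed to 74.9 to 155 in BDS and 88.7 to 209 in control pups. Which cells gave these counts, and their part in the values below, was not tested.

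Of the 3 ligands, microglial RNA carried Tgfb1 well above background, whereas Tgfb2 and Tgfb3 lay at background. Raw counts of Tgfb1, the ligand that microglia are known to make themselves, ran from 6691 to 14654 in BDS lanes and from 960 to 11593 in control lanes, above the limit in all 10. After scaling, Tgfb1 stood at 8093, 6619.8, 6147, 7589 and 8637 normalized counts in BDS 11, 17, 24, 38 and 59, against 6295, 5805, 6302, 4896 and 8702 in control 1, 18, 40, 52 and 69. The groups overlapped, with control 69 the highest lane of all, and control 18 and 52 below every BDS lane. The means were 7417 ± 1028 for BDS and 6400.0 ± 1409 for control pups (SD, n = 5 each). The log2 fold change, BDS over control, was 0.21 ± 0.18 (SE), and its p, adjusted over all 283 tested genes, was 0.449 by the quasi-likelihood test of edgeR.

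Tgfb2, a ligand known for roles in neural and heart development, had raw counts of 4, 9, 3, 6 and 13 in BDS 11, 17, 24, 38 and 59, and of 8, 10, 9, 7 and 2 in control 1, 18, 40, 52 and 69. It was above the limit in 0 of 10 lanes. Tgfb3, the third ligand, known for its role in palate development, had raw counts of 4, 18, 14, 19 and 10 in the BDS lanes and of 14, 8, 21, 4 and 5 in the control lanes, in the same order of pups. It passed the limit in 1 lane, BDS 17 (limit 16.7). Both ligands thus missed the 4 lanes needed for a test, and no fold change is given for them.

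**Figure D1:**
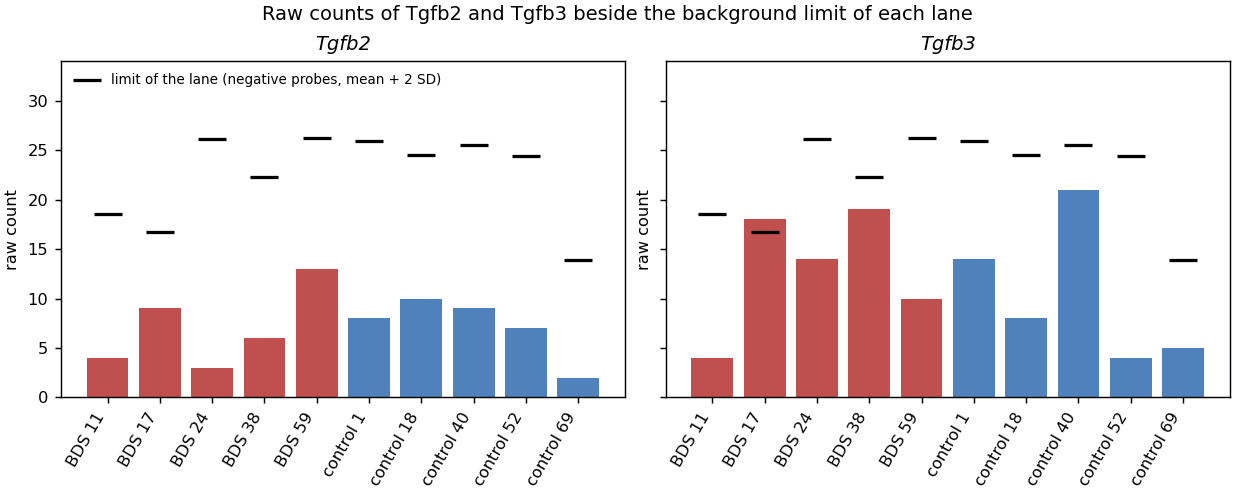
Raw counts of Tgfb2 and Tgfb3 (y axis) in each of the 10 lanes (x axis), as bars coloured by group, with a black mark at the background limit of each lane, 2 SD over the mean of its negative probes. All bars but Tgfb3 in BDS 17, at 18 against a limit of 16.7, lie under the mark.

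For Tgfb3 the authors' deposited table lists a ratio of 0.47 (BDS over control) with an unadjusted p of 0.025, and gives 20% of samples above background. On the values scaled here, which are not the authors' values, the negative probes averaged 4.14 to 10.4 normalized counts across BDS pups. Across control pups they averaged 7.13 to 56.7, highest in control 52 and next highest, at 14.9, in control 69. In raw counts they averaged 8.63 to 11.6 across BDS lanes and 5.5 to 13.1 across control lanes. Tgfb3 was at 4.84 to 9.84 normalized counts across BDS pups and 7.20 to 20.4 across control pups. Tgfb2 was at 1.73 to 9.22 in BDS lanes and 4.89 to 35.7 in control lanes. Both lie within or below the range of those lane means in BDS lanes, and below the highest of them, control 52, in control lanes. Lane by lane, raw Tgfb3 was over the negative mean in some lanes (18 against 9 in BDS 17, 21 against 13.1 in control 40). It was under it in others (4 against 8.63 in BDS 11, 4 against 11.1 in control 52). Neither ligand was tested for a difference between the groups, and the part of scaling and depth in the authors' ratio was not tested.

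The receptor chains lay on opposite sides of 0. Tgfbr2, the chain that binds the ligand first, stood at 7764, 6369, 6255, 7195 and 7880.2 normalized counts in BDS 11, 17, 24, 38 and 59, against 9429, 7279, 9204, 10129 and 9275 in control 1, 18, 40, 52 and 69. All 5 BDS lanes were below the control mean, and the groups overlapped only through control 18, which lay between BDS 38 and BDS 11. The means were 7093 ± 759 for BDS and 9063 ± 1063 for control pups (SD, n = 5 each).

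The log2 fold change of Tgfbr2 was -0.35 ± 0.15 (SE), with an edgeR p of 0.0366 and an adjusted p of 0.156. It was the 1 of the 6 tested genes of the pathway at an unadjusted p under 0.05, where 28.3% of all 283 tested genes were, so that count does not set the pathway apart from the panel. No gene of the panel passed an adjusted p of 0.05 in that fit (0 of 283, 0%; 80 at an unadjusted p under 0.05), whereas DESeq2 with its own scaling called 30 genes (10.6%), Tgfbr2 among them, at a log2 fold change of -0.48 and an adjusted p of 0.0290. Over the 30 alternatives tried, the adjusted p of Tgfbr2 ran from 0.0290 to 0.505.

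Without Sdha among the housekeeping genes, the log2 fold change of Tgfbr2 was -0.54 ± 0.16 (SE; edgeR adjusted p = 0.0979). In the authors' deposited table Tgfbr2 ran from 8267 to 10699 in BDS lanes and from 10965 to 16788 in control lanes, with no overlap. There it has the 5th smallest unadjusted p, 0.0046, of the 309 genes the authors counted as present, and a ratio of 0.69, where 17.5% of them have an unadjusted p under 0.05 in the authors' deposited table. In those values the groups do not overlap in 4.53% of the 309 genes, and in 2.91% with BDS below control. With lane depth as a covariate, taken as the log2 housekeeping signal that also scaled the lanes, Tgfbr2 was at -0.24 ± 0.16 (SE; edgeR adjusted p = 0.412). That signal differed by 1.23 between the groups.

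Tgfbr1, the kinase chain that passes the signal on to SMADs, stood at 4841, 8439, 5892, 9009.9 and 6953 normalized counts in BDS 11, 17, 24, 38 and 59, against 3535, 4422, 5644, 7324 and 5647 in control 1, 18, 40, 52 and 69. In all, 4 of 5 BDS lanes exceeded the control mean, 2 of them (BDS 17 and 38) exceeded every control lane, and BDS 11 lay below 3 of the control lanes. The means were 7027 ± 1732 for BDS and 5314 ± 1433 for control pups (SD, n = 5 each). The log2 fold change was 0.40 ± 0.22 (SE), with an adjusted p of 0.229 by edgeR. Without control 52, the shallowest lane and the highest control for this gene, it was 0.55 ± 0.20 (edgeR adjusted p = 0.110). With all lanes it was 0.20 without Sdha in the scaling (edgeR adjusted p = 0.545) and 0.51 without Polr1b (edgeR adjusted p = 0.129).

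**Figure D2:**
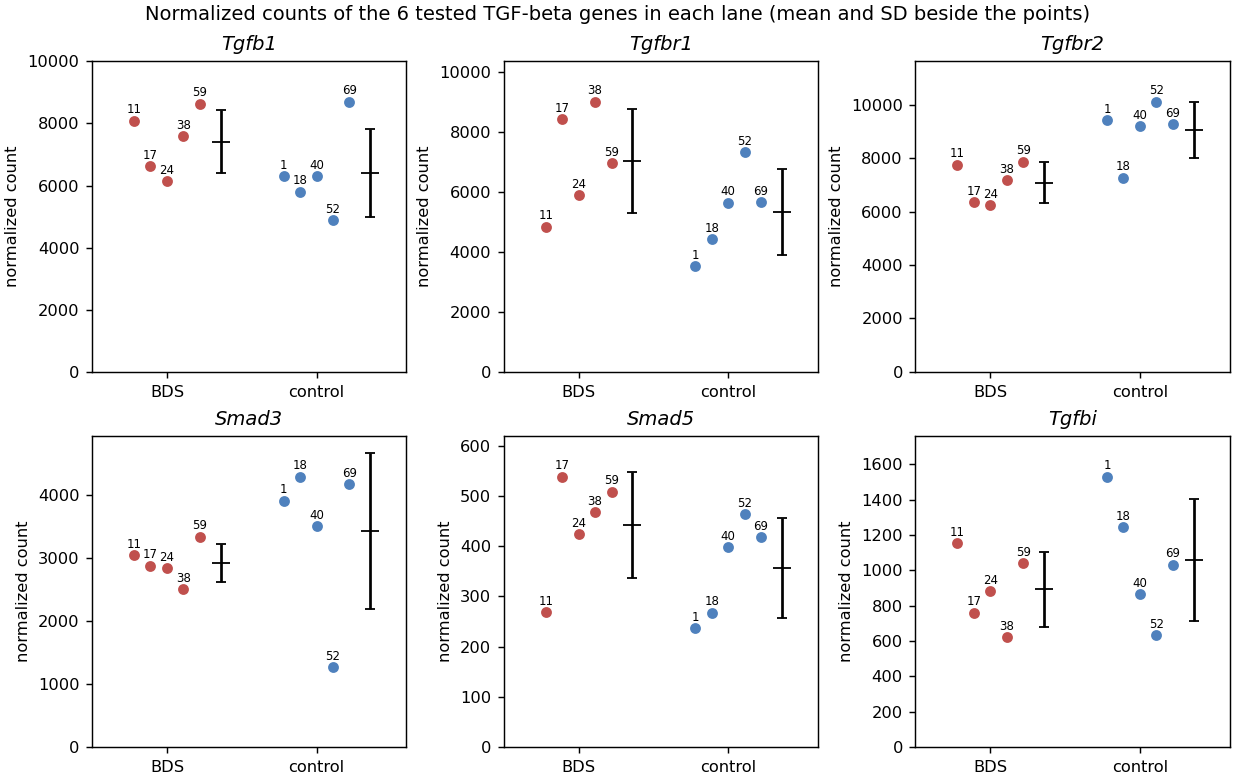
Normalized counts (y axis, from 0) of the 6 tested genes in each lane, BDS left and control right, each point labelled with its pup number and the mean and SD of 5 lanes drawn beside the points. Tgfbr2 lanes of BDS pups lie at 6255 to 7880.2 and those of control pups at 7279 to 10129, and Smad3 in control 52 stands apart at 1265.

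The promoters of the 3 genes whose ratios are compared next are shown: the 250 bases upstream of the outermost annotated start, from RefSeq (build GRCm38.p6), in the direction of transcription. Capitals mark GC boxes (GGGCGG on either strand), a common element of promoters without a TATA box.
Tgfb1, chr7:25686752-25687001, plus strand: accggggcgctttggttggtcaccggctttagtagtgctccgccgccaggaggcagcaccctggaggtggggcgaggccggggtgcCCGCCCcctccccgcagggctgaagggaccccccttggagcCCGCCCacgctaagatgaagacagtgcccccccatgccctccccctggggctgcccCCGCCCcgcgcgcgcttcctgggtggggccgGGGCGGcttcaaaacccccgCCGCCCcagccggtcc
Tgfbr1, chr4:47352972-47353221, plus strand: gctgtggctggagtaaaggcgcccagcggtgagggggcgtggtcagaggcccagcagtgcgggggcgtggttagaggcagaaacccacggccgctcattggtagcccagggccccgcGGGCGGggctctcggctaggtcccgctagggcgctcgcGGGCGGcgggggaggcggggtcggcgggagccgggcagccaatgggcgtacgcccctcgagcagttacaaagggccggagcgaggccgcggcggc
Tgfbr2, chr9:116175364-116175613, minus strand: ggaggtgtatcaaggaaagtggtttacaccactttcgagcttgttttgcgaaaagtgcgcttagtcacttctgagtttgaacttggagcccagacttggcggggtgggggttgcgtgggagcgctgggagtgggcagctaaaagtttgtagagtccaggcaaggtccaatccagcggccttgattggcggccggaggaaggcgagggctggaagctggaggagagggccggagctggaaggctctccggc
The Tgfb1 window holds 5 GC boxes, the Tgfbr1 window 2 and the Tgfbr2 window 0, none overlapping another, where 32.7% of 32851 promoter windows of that length hold at least 1. The short SMAD box CAGAC (either strand) occurs 0 times in the Tgfb1 and Tgfbr1 windows and 1 time in the Tgfbr2 window, against 42.2% of windows with at least 1. TATAAA (either strand) is in none of the 3 windows and in 12.4% of all. G and C make up 75.2%, 74.8% and 58.4% of the 3 windows in the order shown, against a median of 52.4% over all windows. A second, inner start listed for Tgfbr1 is not shown. The counts do not bear on which start was used.

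Ratios of 2 genes read in the same lane do not depend on how the lane was scaled, though they carry the efficiency of both probes and so mean something only between lanes. The ratio of Tgfbr1 to Tgfbr2 was 0.623, 1.33, 0.942, 1.25 and 0.882 in BDS 11, 17, 24, 38 and 59, against 0.375, 0.607, 0.613, 0.723 and 0.609 in control 1, 18, 40, 52 and 69. In all, 4 of 5 BDS lanes exceeded every control lane, and BDS 11 lay below control 52. On the log2 scale the ratio was -0.044 ± 0.44 for BDS and -0.80 ± 0.36 for control pups (SD, n = 5 each), a difference of 0.76, or 1.69-fold. A difference at least that large was found in 28.5% of the 39903 pairs of tested genes, so its size is not uncommon on this panel.

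The ratio of Tgfb1 to Tgfbr2, ligand over the chain that binds it, did not overlap between the groups. It was 1.04, 1.04, 0.983, 1.05 and 1.096 in BDS 11, 17, 24, 38 and 59, against 0.668, 0.797, 0.685, 0.483 and 0.938 in control 1, 18, 40, 52 and 69. The BDS lanes sat close together, with an SD of 0.057 on the log2 scale around a mean of 0.060, while the control lanes had an SD of 0.36 around a mean of -0.52 (n = 5 each). The difference was 0.58 on the log2 scale, or 1.49-fold, and 0.45 without control 52. A difference of that size or more was found in 41.5% of all pairs of tested genes.

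Of the 15 pairs among the 6 tested genes this was the 1 pair with no overlap, and 4.12% of all 39903 pairs of tested genes had none. Tgfbr2 accounts for more such pairs than the other genes of the pathway: its ratio to 41 of the 282 other tested genes did not overlap (14.5%), with Tgfbr2 relatively lower in BDS lanes in all 41. The same count was 10 for Tgfb1, 8 for Tgfbr1, 5 for Smad5, 2 for Smad3 and 0 for Tgfbi. The pairs share genes and lanes and are not independent, so these counts carry no test.

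**Figure D3:**
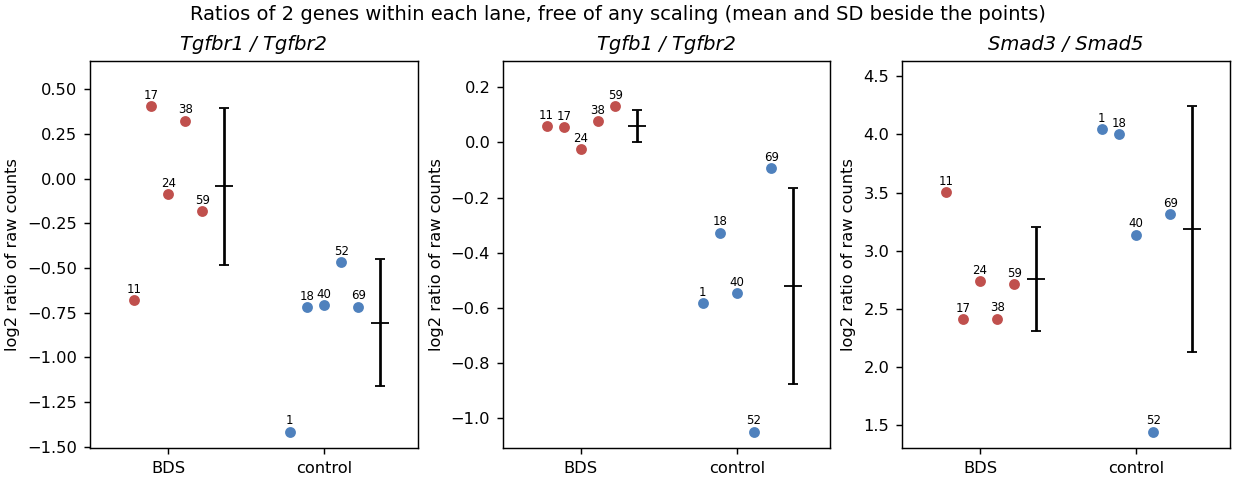
Log2 ratios of raw counts (y axis) of Tgfbr1 over Tgfbr2, Tgfb1 over Tgfbr2 and Smad3 over Smad5 in each lane, BDS left and control right, points labelled with pup numbers and the mean and SD of 5 lanes beside them. The Tgfb1 over Tgfbr2 points of BDS lanes (-0.025 to 0.13) all lie above those of control lanes (-1.05 to -0.092).

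Smad3, a SMAD that the TGF-beta receptor itself activates, was lower in BDS lanes than in 4 of the 5 control lanes. It stood at 3045, 2872, 2832, 2498 and 3333 normalized counts in BDS 11, 17, 24, 38 and 59, against 3904, 4282, 3502, 1265 and 4161 in control 1, 18, 40, 52 and 69. The means were 2916 ± 306 for BDS and 3423 ± 1243 for control pups (SD, n = 5 each). The log2 fold change was -0.23 ± 0.26 (SE), with an adjusted p of 0.570 by edgeR. The control lanes were split: control 52 lay below every BDS lane, while the other 4 control lanes lay above every BDS lane.

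Without control 52 the control mean of Smad3 was 3962 ± 345 (SD, n = 4), with lanes from 3502 to 4282, against 2498 to 3333 in BDS lanes. The log2 fold change was then -0.44 ± 0.14 (SE), with an edgeR p of 0.00683 and an adjusted p of 0.0746, where 32.5% of the 283 tested genes had an unadjusted p under 0.05. Leaving out that lane left 7.77% of the 283 tested genes with no overlap between the groups (3.18% with BDS below control), against 4.59% (1.06% with BDS below control) with all lanes. In control 52 Smad3 had a raw count of 248, above the lane's limit of 24.4, so this low value is not at background. With lane depth as a covariate and all 10 lanes, Smad3 was at -0.49 ± 0.28 (SE; edgeR adjusted p = 0.372).

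Smad5, which is known mainly as a transducer of the related BMP ligands, stood at 268.5, 538, 423, 468 and 508.5 normalized counts in BDS 11, 17, 24, 38 and 59, against 236, 267, 397, 464 and 418 in control 1, 18, 40, 52 and 69. In 3 BDS lanes Smad5 exceeded every control lane, while BDS 11 lay near the lowest controls. The means were 441 ± 106 for BDS and 357 ± 99.4 for control pups (SD, n = 5 each), and the log2 fold change was 0.32 ± 0.24 (SE; edgeR adjusted p = 0.377).

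The ratio of Smad3 to Smad5 was 11.3, 5.34, 6.69, 5.34 and 6.55 in BDS 11, 17, 24, 38 and 59, against 16.5, 16.01, 8.81, 2.73 and 9.95 in control 1, 18, 40, 52 and 69. The groups overlapped through BDS 11 and control 52. The difference was -0.43 on the log2 scale, -0.87 without control 52 and -0.22 without control 1. It was at least as large in 54.5% of all pairs of tested genes.

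Tgfbi encodes a secreted adhesion protein of the extracellular matrix that was named for its induction by TGF-beta. It stood at 1154.0, 760.5, 884, 624 and 1043 normalized counts in BDS 11, 17, 24, 38 and 59, against 1530.3, 1245, 865, 632 and 1032 in control 1, 18, 40, 52 and 69. The groups overlapped, with 4 of 5 BDS lanes below the control mean and control 1 the highest lane. The means were 893 ± 213 for BDS and 1061 ± 345 for control pups (SD, n = 5 each). The log2 fold change was -0.26 ± 0.24 (SE), with an adjusted p of 0.5004 by edgeR. Without control 1 it was -0.087 and without control 52 it was -0.39, so the size rests on single control lanes.

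Lanes high in Tgfbr1 tended to be low in Tgfbi within both groups. Pearson's r of their log2 normalized counts was -0.92 after each group's mean was taken off, and -0.90 with the means left in. The first was the largest in size among the 15 pairs of the tested genes of the pathway, and is given as a description without a test. Among BDS pups, 38 and 17 had the highest Tgfbr1 and the lowest Tgfbi, and pup 11 had the lowest Tgfbr1 and the highest Tgfbi. Among control pups, 52 had the highest Tgfbr1 and the lowest Tgfbi, and 1 and 18 had the lowest Tgfbr1 and the highest Tgfbi. BDS 38 and 17 were the deepest BDS lanes, and control 52 was the shallowest control lane. The part of depth in this pattern was not tested. Smad5 followed Tgfbr1, with its lowest BDS value in pup 11 and its lowest control value in pup 1.

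**Figure D4:**
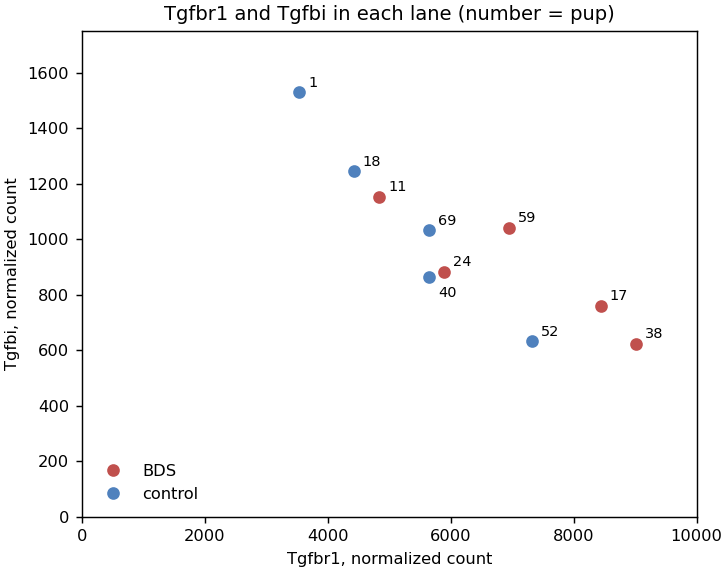
Tgfbr1 (x axis) against Tgfbi (y axis), both in normalized counts from 0, 1 point per lane labelled with its pup number and coloured by group. The points descend from control 1 (Tgfbr1 3535, Tgfbi 1530.3) to BDS 38 (Tgfbr1 9009.9, Tgfbi 624).

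All log2 fold changes above move together when the lanes are scaled differently, so they were also read against the median of the 283 tested genes, 0.089 with the 6 housekeeping genes. Over 11 scalings, Tgfbr2 ran from -0.54 to 0.85 as fitted, and from -0.50 to -0.42 after subtracting the panel's median. Tgfbr1 was 0.29 to 0.42 above the median and Smad5 0.22 to 0.30 above it, while Smad3 was -0.53 to -0.31 and Tgfbi -0.51 to -0.33 relative to it. Tgfb1 lay nearest the panel, at 0.039 to 0.14. The fitted signs of Tgfbr2, Smad3 and Tgfbi turned positive with scaling to the positive control probes alone, where the panel's median was 1.35, and under none of the 9 other scalings.

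**Figure D5:**
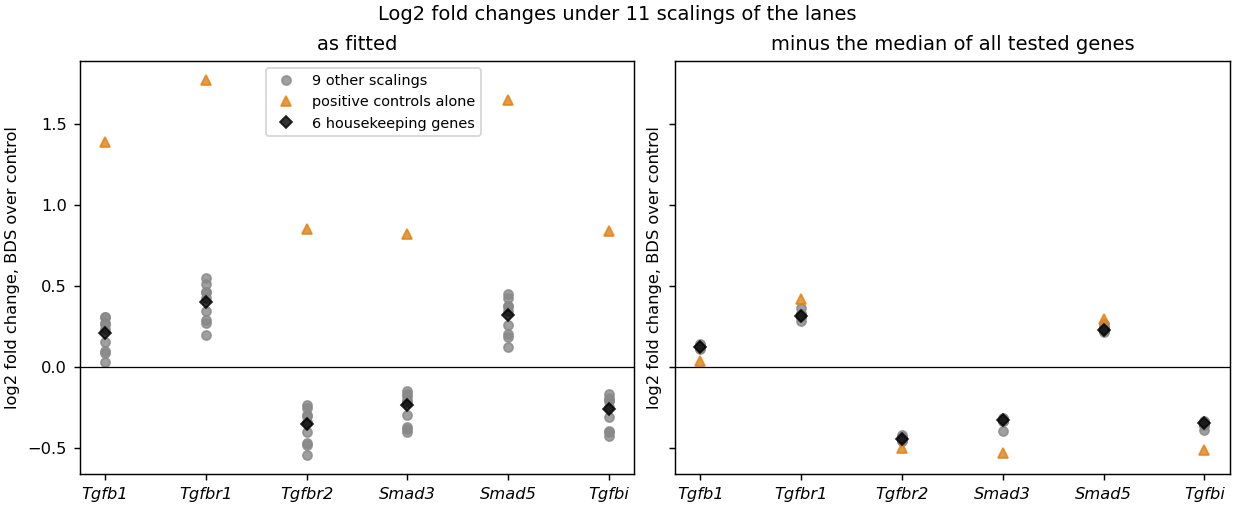
Log2 fold change, BDS over control (y axis), of the 6 tested genes under 11 scalings of the lanes, as fitted (left) and minus the median of all 283 tested genes (right). Black diamonds are the 6 housekeeping genes, orange triangles the positive control probes alone and grey circles the 9 other scalings. Tgfbr2 lies at -0.50 to -0.42 in the right panel and Tgfbr1 at 0.29 to 0.42.

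As a set, 3 of the 6 tested genes had a log2 fold change above 0 (Tgfb1, Tgfbr1, Smad5) and 3 below (Tgfbr2, Smad3, Tgfbi), with a median of -0.011, against 158 above and 125 below with a median of 0.089 over all 283 tested genes. No gene of the set passed an adjusted p of 0.05 in that fit.

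Other genes of the pathway were looked up from lists made with earlier results of these data known. None of the 13 BMP and activin family genes and other SMADs looked for was on the panel. Of 16 genes for ligand release and co-receptors, 2 were on the panel and tested. Itgb1, the integrin beta chain that pairs with alpha v among others, stood at 4265 ± 756 normalized counts for BDS and 2714 ± 482 for control pups (SD, n = 5 each). The fitted log2 fold change was 0.65 ± 0.19 (SE; edgeR adjusted p = 0.0706), and 0.43 with lane depth as a covariate. Plau, the urokinase that generates plasmin, was at -0.15 ± 0.19 (log2 fold change and SE), at -0.018 without control 52 and at 0.091 with depth as a covariate.

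Among nuclear partners and targets 6 were tested, of which 1 was higher and 0 lower at an unadjusted edgeR p under 0.05, against 19.4% higher and 8.83% lower over the panel. That gene was Cdkn1a, the cell cycle inhibitor p21 and a classical SMAD target, at 930 ± 185 normalized counts for BDS and 612 ± 180.1 for control pups (SD, n = 5 each). The fit gave 0.61 ± 0.24 on the log2 scale (SE; edgeR adjusted p = 0.140). The interferon regulatory factor gene Irf7 was at 0.30 ± 0.29 (0.064 without BDS 17 and 0.14 with lane depth as a covariate) and Stat3, a cytokine-activated factor, at -0.24 ± 0.29 (log2 fold change and SE), and Stat3 turned to 0.21 with that covariate and to 0.022 without control 52. The median of these 6 genes was -0.048.

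Of the non-SMAD signalling genes 4 were tested, 0 higher and 1 lower at an unadjusted edgeR p under 0.05. Over the panel the shares were 19.4% higher and 8.83% lower. The lower one was the kinase gene Src, at 113.0 ± 20.0 normalized counts for BDS and 175 ± 38.7 for control pups (SD, n = 5 each). The fit gave -0.61 ± 0.22 on the log2 scale (SE; edgeR adjusted p = 0.126). Mapk14, which encodes the stress kinase p38 alpha, was at -0.82 ± 0.51 on that scale, at -0.012 without control 52 and at 0.56 with depth as a covariate. The median of the 4 was -0.18.

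A list of 15 genes of resting microglia, drawn up as genes held up by TGF-beta in mouse, had only 6 on the panel, all tested. Whether each of the 6 needs TGF-beta was not tested. At an unadjusted edgeR p under 0.05, 1 was higher and 2 lower, against 19.4% higher and 8.83% lower over the panel. The median of the 6 was 0.073. The higher gene was the complement gene C1qa (0.76 ± 0.20; edgeR adjusted p = 0.0642). The lower ones were the integrin gene Itgam (-0.56 ± 0.18; edgeR adjusted p = 0.0964) and the fractalkine receptor gene Cx3cr1 (-0.63 ± 0.23; edgeR adjusted p = 0.126). With lane depth as a covariate C1qa was at 0.47, Itgam at -0.65 and Cx3cr1 at -0.13, and without control 52 Cx3cr1 was at -0.38. Of inflammatory genes that TGF-beta restrains in macrophages, 9 were tested, with a median of -0.16. Of these, 2 were higher and 0 lower at that unadjusted p, beside the same panel shares of 19.4% and 8.83%. The 2 were the co-stimulatory gene Cd86 (0.88 ± 0.26; edgeR adjusted p = 0.0791) and the chemokine gene Cxcl10 (1.09 ± 0.46; edgeR adjusted p = 0.152), and Il1a was at -0.39 ± 0.19. Cxcl10 counts were low, at 63.0 ± 43.7 normalized counts for BDS and 31.2 ± 9.60 for control pups (SD, n = 5 each). The negative probes averaged up to 10.4 normalized counts in BDS lanes and up to 56.7 in control lanes. The log2 fold change of Cxcl10 was 0.71 without BDS 17, and that of Il1a was -0.25 without control 52 and -0.18 with depth as a covariate. No gene of these lists passed an adjusted p of 0.05 in that edgeR fit. Over the 30 alternatives, C1qa passed it in 7, Itgb1 in 6, Cd86 in 5, Itgam in 3, Cx3cr1 in 2 and Src and Cxcl10 in 1 each. Plau, Cdkn1a, Irf7, Stat3, Mapk14 and Il1a passed in none. Cxcl10 and Irf7 were not above the limit in every lane, so the fit of genes above it in all lanes left them out. Cxcl10 passed only with scaling to the positive controls alone, where the panel's median was 1.35. With DESeq2 and the same scaling the adjusted p was 0.0107 for C1qa, 0.0139 for Itgb1 and 0.0200 for Cd86.

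The genes most like each of the 6 were sought by Pearson's r of log2 normalized counts over the 10 lanes, after each group's mean was taken off. These r values rest on shared lanes, shared depth and shared scaling, and are given as a description, each followed by the r over all lanes with the group means left in. For Tgfb1 they were Selplg (the P-selectin ligand, 0.90 and 0.92), Icam1 (an adhesion molecule, 0.81 and 0.68) and Mbp (myelin basic protein, 0.73 and 0.56). For Tgfbr1 they included Tnfaip3 (the NF-kB inhibitor A20, 0.95 and 0.83) and Entpd1 (the ectonucleotidase CD39, 0.94 and 0.92). Smad5 came closest to the kinase gene Prkcd (0.93 and 0.89), and had Tgfbr1 itself at 0.91 and 0.92.

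Tgfbr2 had no such close partner. Its nearest were the transcription factor gene Ets1 (0.77 and 0.85), the chemokine gene Ccl6 (0.69 and 0.59) and the lymphotoxin gene Lta (0.69 and 0.82), of which Ets1 and Lta were above the limit in 4 lanes only. For Smad3 they were Il16 (0.95 and 0.89), Cul9 (0.93 and 0.88) and the interleukin-6 receptor gene Il6ra (0.93 and 0.89). For Tgfbi they were Ctnnb1 (beta-catenin, 0.95 and 0.92), Itgam (0.93 and 0.81) and the cytokine receptor chain gene Csf2rb (0.88 and 0.88).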

How the data were processed

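The authors' raw table holds counts of barcodes per probe, deposited without normalization. Their second deposited table holds normalized values, whole numbers after scaling and so handled as a score, with group means, the percent of samples above background, a fold change (a ratio of group means, per the file headers) and an unadjusted p-value. Per the series' design text they scaled to positive controls and 5 housekeeping genes, naming 6. The counting software is not given in the sources used here.

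Here raw counts were scaled by the geometric mean of the 6 named housekeeping genes and rescaled to the geometric mean over lanes. Genes whose counts passed the background limit (2 SD over the mean of the lane's negative probes) in 4 or more of the 10 lanes (40%) were kept for testing, 283 of 545, including 6 of the 8 described. The test, two-sided and without covariates, was edgeR's quasi-likelihood F test (version 4.0.16, R 4.3.3) on raw counts with housekeeping offsets. It was checked on counts simulated with the same housekeeping factors, so the check cannot bear on errors in those factors. P-values were adjusted over the 283 genes by Benjamini-Hochberg. Dividing a log2 fold change by the square root of its F gave the standard error. A log2 scale of normalized counts uses a pseudocount of 1. Alternatives used DESeq2 1.42.0, limma 3.58.1, other scalings, filters and lanes left out. Another added the log2 housekeeping signal, called lane depth in this report, as a covariate. All 8 genes matched RefSeq by accession and symbol. Sorted cells of separate litters make the pup the replicate. Without molecular identifiers, amplified counts are not counts of independent molecules.

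The rule named all 8 genes, up to 3 genes of each list by smallest p, and, for each of the 8 genes that passed the limit in at least 8 lanes, the 3 tested genes most like it. One gene that the rule named is not reported here. Members and lists were chosen with earlier results of these data known, and the choice of Polr1b, Sdha and Csf3r followed a look at their values. The negative probes, positive probes and housekeeping genes stayed out of the tests.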

Additional observations from a re-analysis of the deposited data

Results flagged for a closer look

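The normalized count of Smad3 in control 52 was 1265, and its gap to the nearest other control lane was 0.741 of the whole range of the 5 control lanes, above the 0.71 allowed for 5 samples. The log2 ratio of Tgfbr1 to Tgfbr2 in control 1 was -1.42, with a gap of 0.735 of the range of the control lanes. These were the 2 values found this way among 20 groups of lanes examined, where chance gives about 1 in 20.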

How the results depend on the processing

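No paired analysis was possible because the pups of both groups share no replicate number. The design of 5 lanes a group with a depth gap limits every call here. Of the 6 tested genes, Tgfbr2 alone passed an adjusted p of 0.05 under any of the 30 alternatives, at -0.48 with DESeq2 and its own scaling (adjusted p = 0.0290). With scaling to the positive controls alone, log2 fold changes turned to 0.85 for Tgfbr2, 0.82 for Smad3, 0.84 for Tgfbi, 1.22 for Plau, 1.33 for Stat3, 0.72 for Src, 1.29 for Mapk14, 0.60 for Itgam, 0.87 for Cx3cr1 and 0.90 for Il1a, where the panel's median was 1.35. Tgfb1, Tgfbr1 and Smad5 kept a positive sign under all 30. Stat3 also turned to 0.21 with depth as a covariate, 0.29 without the 2 shallowest lanes, and ran from -0.38 (without control 18) to 0.022 (without control 52) with 1 lane left out. Mapk14 turned to 0.56 and 0.48, and Plau to 0.091 and 0.060, with the covariate and without those 2 lanes, and Plau to 0.00029 with all 14 housekeeping genes. The cause was not tested.

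Genes at an adjusted p under 0.05 numbered 0 in the planned fit, 14 with positive controls alone, 12 without Gapdh, 15 without Polr1b, 10 among genes above the limit in all lanes, and 26 and 30 with DESeq2 (same and own scaling). With 1 lane left out they numbered 0 to 48, with 48 without control 40 and 19 without BDS 11. At an unadjusted p the 80 genes became 128 with positive controls alone, 139 with no filter, 36 with the covariate, and 45 to 108 with 1 lane left out, 45 without BDS 17. The groups did not overlap in 13 genes, 22 without control 52 and 48 without the 2 shallowest lanes, 2 settings chosen after seeing the data.

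With 1 lane left out, log2 fold changes ran from -0.42 to -0.31 for Tgfbr2, 0.29 to 0.55 for Tgfbr1, 0.13 to 0.35 for Tgfb1, -0.44 to -0.14 for Smad3, 0.20 to 0.45 for Smad5 and -0.39 to -0.087 for Tgfbi. The log2 ratio differences ran from 0.61 to 0.92 for Tgfbr1 over Tgfbr2, 0.45 to 0.69 for Tgfb1 over Tgfbr2 and -0.87 to -0.22 for Smad3 over Smad5. The housekeeping gap ran from 0.80 to 1.61, with 1.61 without control 40 (exact permutation p = 0.0238).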
